A study of Mus musculus with 18 samples.

Results

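Chemokines are small secreted proteins that guide the movement of leukocytes, and 51 genes for them and for their receptors were followed in fat, liver and skeletal muscle of MKR and healthy (WT) mice. The genes were taken by symbol from the probe annotation of the array, as every Ccl, Cxcl, Ccr or Cxcr gene with a digit after these letters (Cxcr7 now being Ackr3), plus Cx3cl1, Cx3cr1, Xcl1 and Xcr1. They comprised 34 ligands and 17 receptors out of 20358 genes, and the rule itself uses no measured value. The study hybridised 18 Affymetrix Mouse Gene 1.0 ST arrays, with 1 array for each of the 3 tissues of 6 male mice. The mice were 3 MKR animals, which carry a mutated, dominant-negative IGF-1 receptor transgene in skeletal muscle, and 3 WT animals, all on the FVB/N background and 10 weeks old. The 6 groups are MKR fat, WT fat, MKR liver, WT liver, MKR muscle and WT muscle, each with 3 arrays. Values are log2 intensities, where a difference of 1 is a doubling, and each gene's value is the mean of its probe sets (1 to 12 per gene, median 5).

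Ligands are named by the spacing of their first cysteines (CC, CXC, CX3C and XC) and act on receptors of the G protein-coupled type on the surface of monocytes, neutrophils, lymphocytes and other cells. Many of them are induced within hours by inflammatory signals through NF-kappaB or by interferon, while others, such as CXCL12, are made by resting stroma and retain cells in a tissue. In adipose tissue CCL2 and its receptor CCR2 are known for drawing monocytes into obese fat, and in liver and muscle the same family directs leukocytes after injury.

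Each tissue label matched its markers. The mean of 8 adipocyte genes was 9.36 to 10.79 in fat and 5.43 to 6.76 in the other tissues, that of 8 hepatocyte genes was 11.74 to 12.00 in liver and 5.16 to 6.87 elsewhere, and that of 8 skeletal muscle genes was 12.06 to 12.22 in muscle and 5.05 to 5.57 elsewhere. The mouse probe sets of Igf1r, the targeted receptor, gave 8.32 to 8.53 in MKR muscle and 6.14 to 6.75 in WT muscle, with 6.10 to 9.07 in MKR fat and 6.07 to 6.97 in WT fat. The fat array of MKR replicate 1 stood apart. In it 18 of 18 epididymis genes lay above every other fat array, their mean being 10.59, against 4.78 to 5.08 in the other fat arrays. The same array was low in adipocyte genes (9.36, against 10.56 to 10.79), endothelial genes (7.97, against 8.77 to 9.19) and macrophage genes (6.63, against 7.17 to 7.61). Results in fat are therefore given with and without it. The limma fit used below shares the spread of each gene over all arrays. This array therefore also enters the SE and p given for liver and muscle. In bulk tissue a smaller number of cells of a type and less RNA per cell cannot be told apart.

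The members that differed between tissues were more often higher than lower in fat. At an adjusted p under 0.05 in limma, 17 of 51 members were higher in fat than in liver (24.3% of all genes were) and 7 were lower (22.3% of all genes). Against muscle, 19 were higher in fat (24.8% of all genes) and 5 lower (22.3% of all genes). Between the remaining tissues, 11 were higher in liver than in muscle (22.5% of all genes) and 5 lower (26.1% of all genes). The shares of members higher in fat, 33.3% and 37.3%, were above those of all genes, and the shares of members lower in fat, 13.7% and 9.8%, were below them.

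Of the 51 members, 12 (23.5%) were higher in fat than in both other tissues (13.5% of all genes were), 5 (9.8%) were higher in liver than in both others (14% of all genes) and 2 (3.92%) in muscle (15% of all genes). In fat these were the macrophage chemokine Ccl6, the interferon-induced ligands Cxcl9, Cxcl10 and Cxcl11, the monocyte chemoattractants Ccl2 and Ccl12, the eotaxin Ccl11, Cxcl16, Ccl28, and the receptors Ccr2, Cxcr4 and Cx3cr1. In liver they were Cxcl12, the neutrophil attractant Cxcl1, Ccl9, Cxcl17 and the eotaxin receptor Ccr3. In muscle they were Cxcl14 and Ccr1l1, a close relative of Ccr1. Without MKR fat replicate 1 the calls of Cxcl17 and Ccr1l1 did not hold. The call of Ccl28 rests on MKR fat replicate 1 and WT fat replicates 1 and 2 (8.25, 8.86 and 8.74). Its values in the remaining fat arrays (5.92, 5.72 and 5.91) lay within its muscle range of 5.14 to 6.33. The heat map of all members shows the same blocks, along with the paler column of MKR fat replicate 1.

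**Figure D1:**
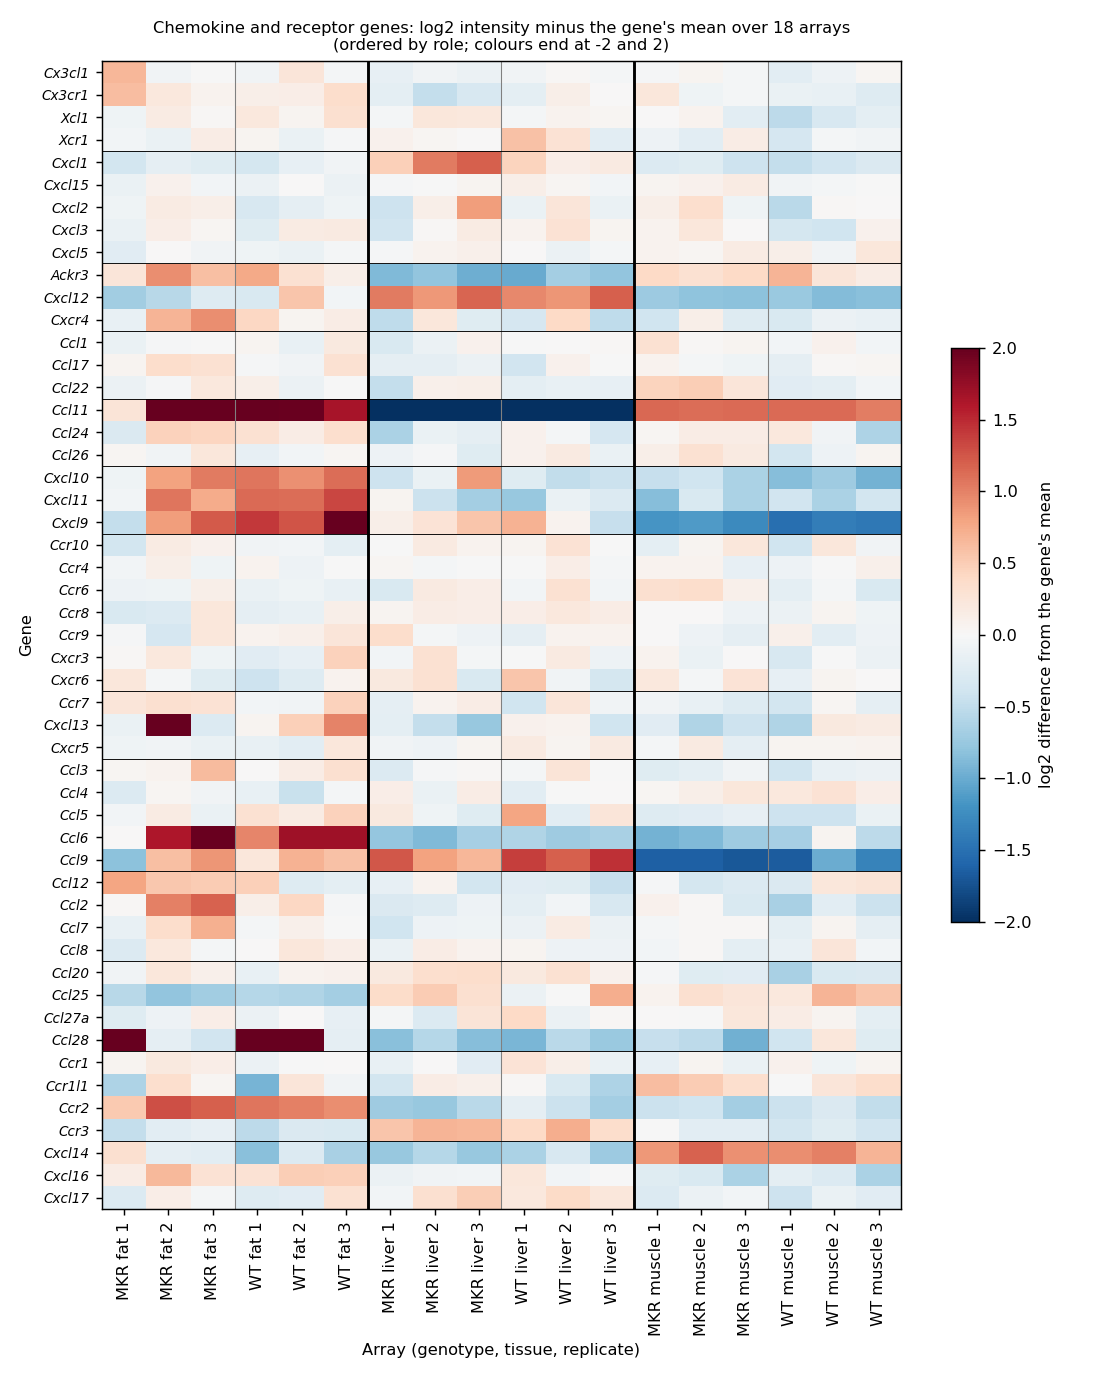
Log2 intensity of each of the 51 members (rows, ordered by role) on each of the 18 arrays (columns, MKR left of WT within a tissue), as the difference from the gene's own mean over the arrays, with red higher and blue lower. Ccl11 is deep blue in all liver arrays, Ccl6 and Cxcl9 are red in fat except in MKR fat replicate 1, and Ccl28 is red in 3 of the 6 fat arrays.

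Ccl11, eotaxin-1, which attracts eosinophils through CCR3, had the widest range of any member, 5.56 to 10.83 over the arrays. Its mean was 10.22 in fat, 5.65 in liver and 9.61 in muscle, so that fat was 4.57 higher than liver (SE 0.24, adjusted p = 9.37e-11 from limma). Fat minus muscle was only 0.61 (SE 0.24), with an adjusted p that rounds to the threshold of 0.05. MKR fat replicate 1, at 8.75, lay below all muscle arrays (9.52 to 9.64). Without that array the difference was 0.94 (SE 0.08, adjusted p = 2.02e-08). Between fat and liver the receptor gene Ccr3 went the other way. Ccr3 averaged 4.97 in fat, 5.86 in liver and 5.07 in muscle, and fat lay 0.89 below liver (log2 difference -0.89, SE 0.08, adjusted p = 1.16e-07). Ccr2, the receptor of the monocyte chemoattractants, averaged 6.39 in fat, 4.84 in liver and 4.94 in muscle (fat minus liver 1.55, SE 0.12, adjusted p = 1.17e-08; fat minus muscle 1.45, SE 0.12, adjusted p = 3.09e-08). All 6 fat arrays, from 5.91 to 6.67, lay above all liver and muscle arrays, the highest of which was 5.21.

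CXCL12 and its receptors also differed by tissue. Cxcl12, the stromal factor that holds leukocytes and progenitors in place, averaged 7.57 in fat, 8.81 in liver and 6.99 in muscle. The difference of fat from liver was -1.23 (SE 0.12, adjusted p = 2.38e-07) and that of liver from muscle was 1.82 (SE 0.12, adjusted p = 1.07e-09). The 6 liver arrays lay between 8.65 and 8.98, above the highest fat array at 8.35. Ackr3, a receptor that takes up CXCL12 without G protein signalling, was lowest in liver, with 6.05 in fat, 4.70 in liver and 5.91 in muscle (fat minus liver 1.35, SE 0.13, adjusted p = 1.72e-07). Fat and muscle did not differ beyond their spread for Ackr3 (0.13, SE 0.13, adjusted p = 0.428). Cxcl14, a ligand made by epithelium and by muscle, averaged 5.46 in fat, 5.13 in liver and 6.69 in muscle, and fat lay below muscle (-1.23, SE 0.12, adjusted p = 2.18e-07).

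**Figure D2:**
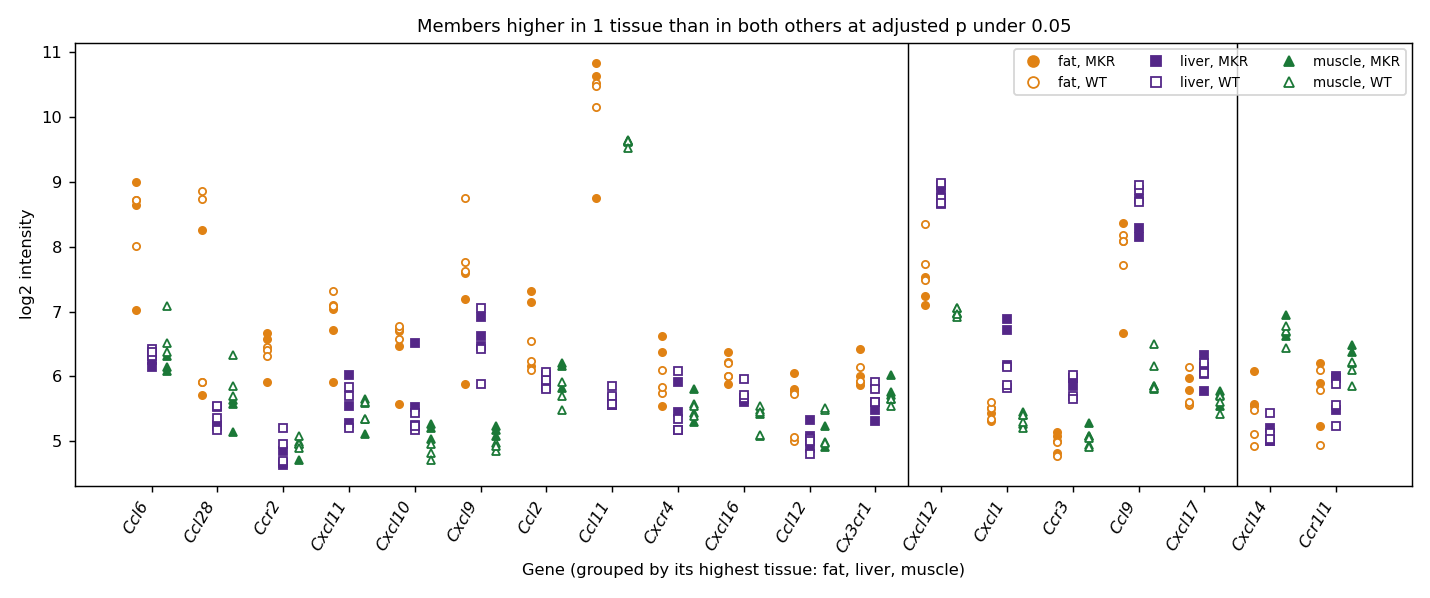
Log2 intensity (vertical axis) on every array for the 19 members that were higher in 1 tissue than in both others (horizontal axis, grouped by that tissue), with filled symbols for MKR and open symbols for WT mice. Ccl6, Ccr2 and Ccl11 separate fat from liver on every array, Cxcl12 and Ccr3 have their highest arrays in liver, and Cxcl14 has its highest arrays in muscle.

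The neighbouring genes Ccl6 and Ccl9 on chromosome 11, which encode mouse ligands of CCR1 made by macrophages, had different orders of tissues, Ccl6 being highest in fat and Ccl9 in liver. Ccl6 averaged 8.35 in fat, 6.32 in liver and 6.42 in muscle (fat minus liver 2.04, SE 0.25, adjusted p = 3.31e-06), and liver and muscle did not differ beyond their spread (-0.10, SE 0.25, adjusted p = 0.779). Ccl9 averaged 7.85 in fat, 8.61 in liver and 6.0 in muscle, and fat lay below liver (-0.76, SE 0.22, adjusted p = 0.00926) and above muscle (1.85, SE 0.22, adjusted p = 2.49e-06). The 250 bases before each start are shown because the pair differs in its order of tissues. They come from RefSeq (GRCm38.p6), 5′ to 3′ on the gene's strand, with capitals for an AP-1-type match (TGANTCA), which Ccl9 has at -53 to -47 and Ccl6 does not have in this window.
Ccl6, chr11:83593088-83593337, minus strand: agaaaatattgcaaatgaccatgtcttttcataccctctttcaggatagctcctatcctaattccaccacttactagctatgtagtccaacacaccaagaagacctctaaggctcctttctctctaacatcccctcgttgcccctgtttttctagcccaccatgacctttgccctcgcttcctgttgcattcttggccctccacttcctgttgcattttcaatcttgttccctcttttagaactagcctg
Ccl9, chr11:83578637-83578886, minus strand: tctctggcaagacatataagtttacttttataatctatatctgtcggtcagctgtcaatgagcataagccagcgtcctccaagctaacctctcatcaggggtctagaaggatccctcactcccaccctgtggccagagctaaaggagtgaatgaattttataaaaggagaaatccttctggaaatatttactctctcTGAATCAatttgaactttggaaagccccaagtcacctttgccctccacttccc
Of 51 members, 37 had a window in the RefSeq table (41 windows). Those without one were Ccl2, Ccl4, Ccl5, Ccl7, Ccl11, Ccl24, Ccl26, Ccr7, Ccr10, Cxcl5, Cxcl11, Cxcl16, Cxcl17 and Cxcr5. The letters TGANTCA, read on both strands, were in 5 of these and in 6.75% of all 32851 windows of this length, so the match is a description and no more.

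Between MKR and WT fat, no member passed an adjusted p of 0.05 over all arrays (limma, 0 of 51, with 0.0393% of all genes called). Without MKR fat replicate 1 the monocyte chemoattractant Ccl2 passed (1 of 51, with 0.152% of all genes called) and was higher in MKR fat. At an unadjusted p under 0.05, 3 members were higher (Ccl2, Ccl12 and Cxcl14, with 3.53% of all genes) and 3 lower in MKR fat (Cxcl9, Cxcl11 and Cxcl12, with 4.25%). Without MKR fat replicate 1, 6 were higher (Ccl2, Ccl7, Ccl11, Ccl12, Cxcl14 and Cxcr4, with 4.99% of all genes) and 3 lower (Cxcl9, Cxcl12 and Ccl28, with 4.99%). The median change of the members was 0.02, and 0.11 without that array, against 0.00 and 0.02 for all genes. With 3 mice against 3, the smallest p an exact permutation test of 1 gene can give is 0.1.

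The monocyte chemoattractants, whose genes lie in 1 cluster on chromosome 11 together with Ccl11, bind CCR2 or related receptors. Ccl2 had a log2 intensity of 6.16, 7.14 and 7.31 in MKR fat and 6.24, 6.54 and 6.10 in WT fat. MKR replicates 2 and 3 lay above all WT arrays, and MKR replicate 1 lay among them. The change was 0.58 (SE 0.22, adjusted p = 0.566 from limma), and 0.93 without MKR replicate 1 (SE 0.16, adjusted p = 0.0193). Of the 6 probe sets of Ccl2, 5 had a higher mean in MKR fat, and 6 without that array, by 0.12 to 1.92. The probe set with the lowest level had 4.59, 5.24 and 5.15 in MKR fat and 4.87, 4.97 and 4.81 in WT fat. The brightest had 10.26, 10.64 and 10.90 in MKR fat and 10.35, 10.57 and 11.01 in WT fat. Its groups overlapped with and without MKR replicate 1, and its difference was the smallest, -0.05 and 0.12. The change of Ccl2 therefore came from its dimmer probe sets. In this comparison the epididymis, adipocyte and macrophage lists move with MKR replicate 1 as given above, and their part in the value of Ccl2 on that array was not tested.

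Ccl7, from the same cluster, had 6.05, 6.55 and 6.92 in MKR fat and 6.16, 6.3 and 6.20 in WT fat. MKR replicates 2 and 3 lay above all WT arrays and MKR replicate 1 below them, with a change of 0.29 (SE 0.17, adjusted p = 0.705) and of 0.52 without MKR replicate 1 (SE 0.14, adjusted p = 0.171). Ccl12, a mouse ligand of CCR2, had 6.05, 5.80 and 5.77 in MKR fat and 5.73, 5.0 and 5.07 in WT fat. All MKR arrays were above all WT arrays, by the narrow margin of WT replicate 1, and the change was 0.61 (SE 0.19, adjusted p = 0.465) and 0.52 without MKR replicate 1 (SE 0.20, adjusted p = 0.371). Ccl8, the remaining gene of the group, ran from 4.34 to 4.83 in MKR fat and from 4.63 to 4.85 in WT fat, with overlapping groups. The receptor gene Ccr2 had 5.91, 6.67 and 6.58 in MKR fat and 6.45, 6.40 and 6.31 in WT fat, so that MKR replicates 2 and 3 lay above all WT arrays and replicate 1 below them. Macrophage genes averaged 7.61 and 7.55 in those 2 MKR arrays and 7.17 to 7.58 in WT fat.

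**Figure D3:**
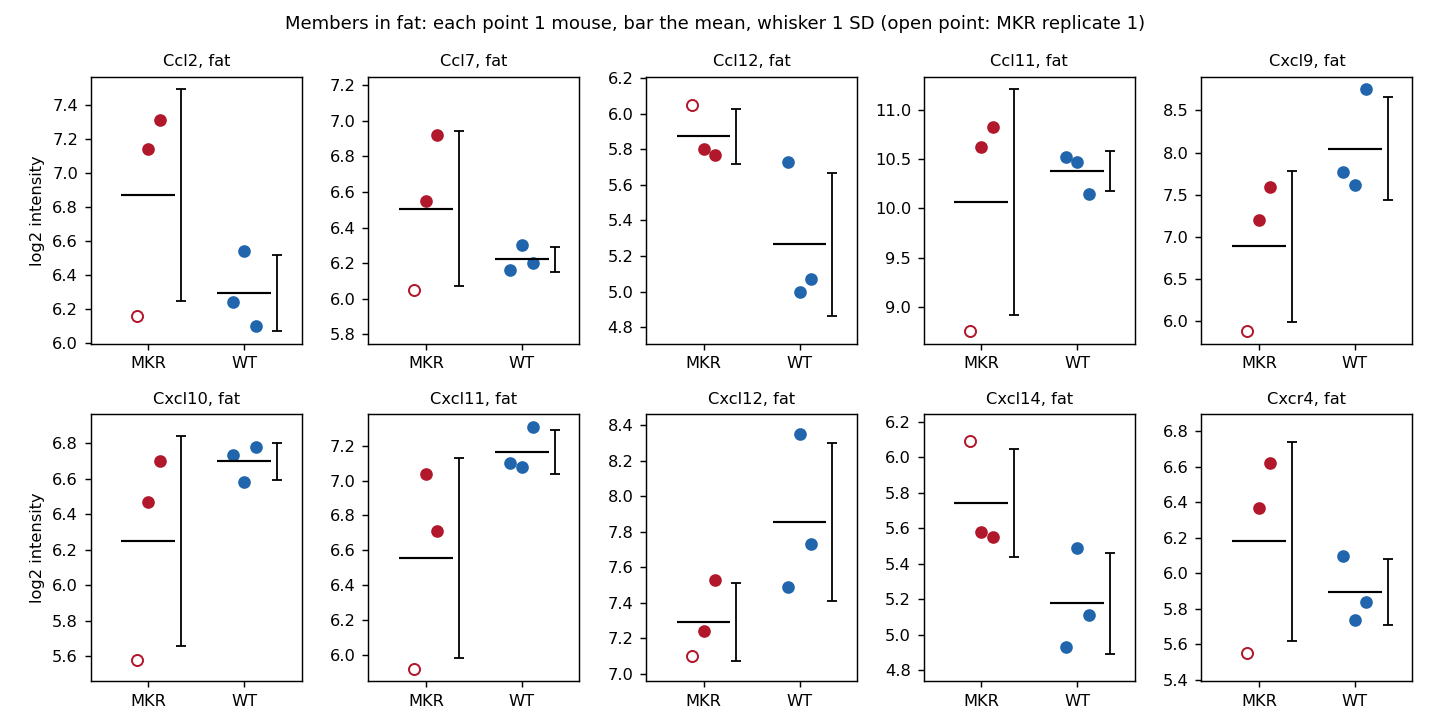
Log2 intensity (vertical axis, own scale per panel) in fat of 10 members, with 1 point per mouse, MKR left of WT, a bar for the mean and a whisker for 1 SD. The open point is MKR replicate 1, which is the lowest MKR array for Ccl2, Ccl7, Ccl11, Cxcl9, Cxcl10, Cxcl11, Cxcl12 and Cxcr4 and the highest for Ccl12 and Cxcl14.

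The interferon-induced ligands of CXCR3, which attract activated T cells, were on the low side in MKR fat. Cxcl9 had 5.88, 7.20 and 7.59 in MKR fat and 7.77, 7.62 and 8.75 in WT fat. All MKR arrays lay below all WT arrays, with a change of -1.16 (SE 0.37, adjusted p = 0.484 from limma), and of -0.65 without MKR replicate 1 (SE 0.29, adjusted p = 0.469). Of 7 probe sets of Cxcl9, 7 had a lower mean in MKR fat. Cxcl11 had 5.92, 7.04 and 6.71 in MKR fat and 7.10, 7.08 and 7.31 in WT fat. These groups did not overlap either, but MKR replicate 2 lay only just below WT replicate 2. The change of Cxcl11 was -0.60 (SE 0.25, adjusted p = 0.603), or -0.29 without MKR replicate 1 (SE 0.21, adjusted p = 0.726). All 7 of its probe sets had a lower mean in MKR fat, but without MKR replicate 1 only 4 did and 3 had a higher one. Cxcl10 had 5.58, 6.47 and 6.70 in MKR fat and 6.73, 6.58 and 6.78 in WT fat, and the groups overlapped (-0.45, SE 0.27, adjusted p = 0.740). Without MKR replicate 1 the change of Cxcl10 was -0.11 (SE 0.24, adjusted p = 0.929). The receptor gene Cxcr3 ran from 5.05 to 5.35 in MKR fat and from 4.91 to 5.61 in WT fat.

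The promoters of Cxcl9 and Cxcl10 are shown because both genes had their highest tissue mean in fat and neighbour each other on chromosome 5. They are the 250 bases before each start (RefSeq, GRCm38.p6), 5′ to 3′ on the gene's strand. Capitals mark matches to an interferon-response-type motif (GAAANNGAA), an NF-kappaB-type motif (GGGANTTTC) and an AP-1-type motif (TGANTCA), each read on both strands.
Cxcl9, chr5:92328080-92328329, minus strand: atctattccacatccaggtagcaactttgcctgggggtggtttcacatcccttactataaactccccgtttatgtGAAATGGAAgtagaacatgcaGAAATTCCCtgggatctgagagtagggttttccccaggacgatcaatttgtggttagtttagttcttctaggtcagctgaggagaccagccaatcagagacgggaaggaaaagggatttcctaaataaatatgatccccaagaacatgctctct
Cxcl10, chr5:92348890-92349139, minus strand: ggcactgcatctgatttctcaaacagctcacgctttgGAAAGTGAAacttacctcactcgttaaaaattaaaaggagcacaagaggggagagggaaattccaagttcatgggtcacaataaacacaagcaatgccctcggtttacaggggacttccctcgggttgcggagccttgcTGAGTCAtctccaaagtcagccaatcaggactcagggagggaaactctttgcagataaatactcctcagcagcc
In Cxcl9 the capitals are an interferon-response-type match at -175 to -167 and an NF-kappaB-type match on the opposite strand at -154 to -146. In Cxcl10 they are an interferon-response-type match at -213 to -205 and an AP-1-type match at -74 to -68. The interferon-response-type letters were in 6 of the 41 member windows and in 7.13% of all windows, and the NF-kappaB-type letters were in 5 member windows and in 0.941% of all windows.

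In the CXCL12 axis, the ligand was among the members with the smallest p in fat. Cxcl12 had 7.10, 7.24 and 7.53 in MKR fat and 7.49, 8.35 and 7.73 in WT fat. The groups overlapped by the margin of 1 array, MKR replicate 3 being above WT replicate 1, and the change was -0.57 (SE 0.17, adjusted p = 0.451) and -0.47 without MKR replicate 1 (SE 0.18, adjusted p = 0.371). All 7 probe sets of Cxcl12 had a lower mean in MKR fat. Cxcr4, the receptor through which CXCL12 signals, had 5.55, 6.37 and 6.62 in MKR fat and 6.10, 5.74 and 5.84 in WT fat. MKR replicates 2 and 3 lay above all WT arrays and replicate 1 lay below them, and the change was 0.28 (SE 0.27, adjusted p = 0.847) or 0.60 without replicate 1 (SE 0.24, adjusted p = 0.386). Ackr3 overlapped between the groups, with 5.80 to 6.49 in MKR fat and 5.67 to 6.32 in WT fat.

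Cxcl14 had 6.09, 5.58 and 5.55 in MKR fat and 4.93, 5.49 and 5.11 in WT fat. All MKR arrays lay above all WT arrays, and MKR replicate 1 was the highest (0.56, SE 0.17, adjusted p = 0.451, and 0.39 without that array, SE 0.16, adjusted p = 0.418). Among the macrophage inflammatory ligands, Ccl5, which attracts T cells and monocytes, had 6.36, 6.58 and 6.28 in MKR fat and 6.73, 6.59 and 6.88 in WT fat. These groups did not overlap, though MKR replicate 2 and WT replicate 2 lay 0.01 apart, and the change was -0.33 (SE 0.19, adjusted p = 0.702). Ccr1, a receptor of CCL5 on myeloid cells, had 4.69, 4.83 and 4.77 in MKR fat and 4.51, 4.62 and 4.64 in WT fat, also without overlap.

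In all, 3 members had all MKR fat arrays above all WT fat arrays (Ccl12, Ccr1 and Cxcl14, with 5.85% of all genes) and 3 had them below (Ccl5, Cxcl9 and Cxcl11, with 5.87%). Without MKR fat replicate 1 there were 14 above, with 16.2% of all genes, and 4 below, with 11.9%. The 14 were Ccl2, Ccl7, Ccl11, Ccl12, Ccl17, Ccl20, Ccl24, Cxcl2, Cxcl14, Ccr1, Ccr2, Ccr3, Ccr10 and Cxcr4, and the 4 were Ccl5, Ccl25, Cxcl9 and Cxcl11.

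MKR fat replicate 1 lay farthest from the mean of the other fat arrays for Cxcl9 (-1.91), Ccl11 (-1.77), Ccl6 (-1.59), Ccl9 (-1.42) and Ccl28 (1.22). Ccl11 had 8.75 in that array and 10.62 and 10.83 in the other MKR fat arrays, against 10.52, 10.47 and 10.15 in WT fat. Its change turned with the array, being -0.31 with it (SE 0.35, adjusted p = 0.881) and 0.35 without it (SE 0.12, adjusted p = 0.299). Ccl6 had 7.03, 8.64 and 9.0 in MKR fat and 8.01, 8.72 and 8.72 in WT fat, and its change also turned, with -0.26 (SE 0.35, adjusted p = 0.912) and 0.34 (SE 0.21, adjusted p = 0.653). Ccl9 had 6.67, 8.09 and 8.37 in MKR fat and 7.72, 8.18 and 8.08 in WT fat (-0.29 with the array, SE 0.31, and 0.23 without it, SE 0.19).

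Ccl28, a mucosal ligand made by epithelia that binds CCR10 and CCR3, was split within both genotypes. It had 8.25, 5.92 and 5.72 in MKR fat and 8.86, 8.74 and 5.91 in WT fat, so that MKR replicate 1 and WT replicates 1 and 2 were high and the other 3 fat arrays were low. The change was -1.21 (SE 0.65, adjusted p = 0.684) and -2.02 without MKR replicate 1 (SE 0.55, adjusted p = 0.185). Both probe sets split the arrays in the same way. A search made after this split was seen found 26 genes whose lowest value in these 3 arrays was at least 2 above the highest value in the other 3, and 0 genes in the opposite direction. Ccl28 ranked 15 among all genes by this gap. Lcn2, lipocalin-2, a protein of neutrophils and stressed epithelia, had 12.16, 5.33 and 6.05 in MKR fat and 9.84, 10.07 and 5.48 in WT fat, and Dnah12, a dynein of motile cilia, had 7.54, 4.75 and 4.84 in MKR fat and 7.87, 8.21 and 4.47 in WT fat. The cells these transcripts came from, and their part in the value of Ccl28, were not tested.

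**Figure D4:**
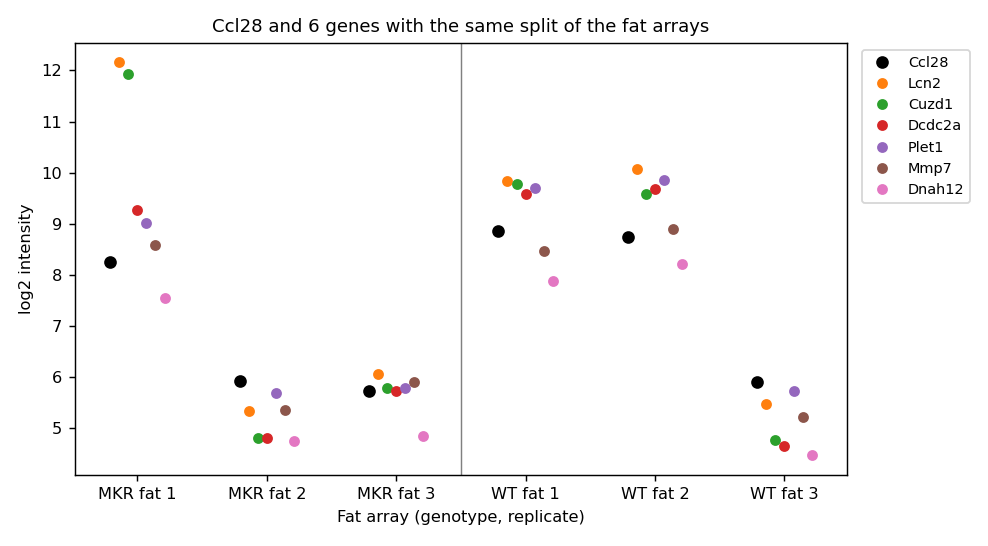
Log2 intensity (vertical axis) on the 6 fat arrays (horizontal axis, MKR left of WT) of Ccl28, in black, and of 6 other genes chosen after their values were seen. MKR fat 1, WT fat 1 and WT fat 2 hold all points above 7, and the other 3 arrays hold all points below 6.1.

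Between MKR and WT liver no member passed an adjusted p of 0.05 (limma, 0 of 51, with 0.0344% of all genes called). At an unadjusted p under 0.05, 1 member was higher in MKR liver, Cxcl1 (2.49% of all genes), and 1 was lower, Cx3cr1 (2.51% of all genes). The median change of the members was -0.03, against 0.00 for all genes. Only Cxcl1 had all MKR livers above all WT livers (4.11% of all genes) and only Cx3cl1 had them below (5.31%).

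Cxcl1, which calls neutrophils through CXCR2, is made by the liver in acute inflammation. It had 6.17, 6.72 and 6.88 in MKR liver and 6.14, 5.82 and 5.87 in WT liver. The groups did not overlap, but MKR replicate 1 lay only just above WT replicate 1. The change was 0.65 (SE 0.15, adjusted p = 0.217 from limma), and 0.86 without MKR liver replicate 1 (adjusted p = 0.0177). It differed between the 3 probe sets, from 0.07 to 1.37. The probe set with the largest change had 6.26, 6.86 and 6.76 in MKR liver and 5.29, 4.87 and 5.61 in WT liver, and the brightest had 7.59, 7.94 and 8.23 in MKR liver and 8.04, 7.95 and 7.55 in WT liver. With the median of the probe sets in place of their mean, the change was 1.37 (adjusted p = 0.00868 from limma). On every liver array that median was the value of the probe set with the largest change. It is therefore no separate evidence beside that probe set.

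The promoters of Cxcl1 and of its neighbours Cxcl2 and Cxcl3, other neutrophil attractants on chromosome 5, are shown. The 3 genes hold the same motif at a similar place, and only Cxcl1 had all MKR livers above all WT livers. Their changes in liver were not tested against each other. The promoters are the 250 bases before each start (RefSeq, GRCm38.p6), 5′ to 3′, with the NF-kappaB-type match (GGGANTTTC) in capitals.
Cxcl1, chr5:90890995-90891244, plus strand: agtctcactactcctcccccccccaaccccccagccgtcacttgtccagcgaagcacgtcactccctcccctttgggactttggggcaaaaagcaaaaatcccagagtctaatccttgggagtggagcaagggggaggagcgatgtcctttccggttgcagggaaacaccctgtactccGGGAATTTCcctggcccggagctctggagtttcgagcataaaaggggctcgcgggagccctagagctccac
Cxcl2, chr5:90903649-90903898, plus strand: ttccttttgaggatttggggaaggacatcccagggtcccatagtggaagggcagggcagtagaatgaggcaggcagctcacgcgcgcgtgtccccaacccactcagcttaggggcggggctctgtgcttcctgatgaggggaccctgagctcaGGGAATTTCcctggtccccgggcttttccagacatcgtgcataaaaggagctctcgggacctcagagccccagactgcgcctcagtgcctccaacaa
Cxcl3, chr5:90785851-90786100, plus strand: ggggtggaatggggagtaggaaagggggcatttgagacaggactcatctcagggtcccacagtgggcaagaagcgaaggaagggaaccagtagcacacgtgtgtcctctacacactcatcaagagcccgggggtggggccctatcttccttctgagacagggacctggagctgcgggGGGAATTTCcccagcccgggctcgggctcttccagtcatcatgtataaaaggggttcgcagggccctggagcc
The matches lie at -71 to -63 in Cxcl1, at -97 to -89 in Cxcl2 and at -73 to -65 in Cxcl3. Cxcl2 had 4.62, 5.15 and 5.87 in MKR liver and 4.90, 5.27 and 4.89 in WT liver, overlapping, with a change of 0.19 (SE 0.24, adjusted p = 0.99979 from limma). Cxcl3 had 5.58, 5.98 and 6.12 in MKR liver and 6.03, 6.24 and 6.01 in WT liver, also overlapping (-0.20, SE 0.16, adjusted p = 0.99979). The CXC ligands Cxcl5 and Cxcl15 of the same cluster stayed between 4.32 and 4.56 in all liver arrays.

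Cx3cr1, the fractalkine receptor of monocytes and resident macrophages, had 5.61, 5.32 and 5.48 in MKR liver and 5.6, 5.92 and 5.81 in WT liver. The groups overlapped by 0.01, all 4 probe sets had a lower mean in MKR liver, and the change was -0.31 (SE 0.14, adjusted p = 0.970 from limma). Its ligand Cx3cl1, fractalkine, had 4.82, 4.91 and 4.86 in MKR liver and 4.91, 5.0 and 4.94 in WT liver, a difference of -0.09 (SE 0.15, adjusted p = 0.99979). Of 10 macrophage genes, 0 had a higher mean in MKR liver. Their mean was 6.70 to 6.88 in MKR liver and 6.92 to 7.07 in WT liver, and the part of this shift in Cx3cr1 was not tested. Cxcl10 had 5.25, 5.53 and 6.51 in MKR liver and 5.43, 5.18 and 5.23 in WT liver, where MKR replicate 3 alone was high (0.48, SE 0.27, adjusted p = 0.99979). Ccl5 had 6.62, 6.33 and 6.18 in MKR liver and 7.21, 6.21 and 6.66 in WT liver, with overlap (-0.32, SE 0.19, adjusted p = 0.99979), and Ccr1 had 4.48, 4.64 and 4.41 in MKR liver and 4.90, 4.74 and 4.5 in WT liver, also with overlap (-0.21, SE 0.11, adjusted p = 0.99979). Ccl9, the liver-rich member, was 8.73, 8.29 and 8.15 in MKR liver and 8.87, 8.69 and 8.95 in WT liver, and 7 of its 7 probe sets had a lower mean in MKR liver (-0.45, SE 0.31, adjusted p = 0.99979).

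In skeletal muscle, the tissue that carries the mutated receptor, no member passed an adjusted p of 0.05 (limma, 0 of 51, with 0.201% of all genes called). At an unadjusted p under 0.05, 4 members were higher in MKR muscle, Ccl22, Ccl26, Ccr6 and Xcl1 (4.64% of all genes), and 0 were lower (5.89% of all genes). The median change was 0.07, against 0.00 for all genes, and 35 of 51 members had a higher mean in MKR muscle. All MKR arrays lay above all WT arrays for 9 members, Ccl20, Ccl22, Ccl26, Cxcl9, Cxcl10, Cxcl15, Ccr3, Ccr6 and Cx3cr1 (10.5% of all genes), and below them for 2, Ccl6 and Ccl28 (11.3%).

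Ccl22, a ligand of CCR4 made by dendritic cells and macrophages, had 5.51, 5.56 and 5.30 in MKR muscle and 4.83, 4.87 and 5.01 in WT muscle. The groups were well apart, and 6 of 6 probe sets had a higher mean in MKR muscle. The change was 0.55 (SE 0.14, adjusted p = 0.161 from limma). Its partner ligand of CCR4, Ccl17, had 4.98, 4.86 and 4.82 in MKR muscle and 4.73, 4.92 and 4.94 in WT muscle, and overlapped. The receptor gene Ccr4 stayed between 3.75 and 4.02 in muscle.

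Ccr6, the receptor that CCL20 binds on lymphocytes and dendritic cells, had 4.86, 4.90 and 4.64 in MKR muscle and 4.34, 4.51 and 4.24 in WT muscle. Again the groups did not overlap (0.44, SE 0.13, adjusted p = 0.255). Of the probe sets, 7 of 8 had a higher mean in MKR muscle, with differences from -0.20 to 1.83. Ccl20 itself had 6.04, 5.83 and 5.84 in MKR muscle and 5.43, 5.77 and 5.78 in WT muscle, where 2 WT arrays came within 0.06 of the lowest MKR array (0.24, SE 0.12, adjusted p = 0.481). Ligand and receptor were therefore both on the high side in MKR muscle, without passing the test. The level of Ccr6 was low, below the median of all genes on each muscle array (5.47 to 5.54).

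Ccl26, an eotaxin gene, had 5.01, 5.20 and 5.06 in MKR muscle and 4.52, 4.79 and 4.95 in WT muscle, without overlap (0.34, SE 0.12, adjusted p = 0.33). Xcl1, lymphotactin, which T and NK cells release to attract dendritic cells with XCR1, had 5.32, 5.39 and 5.11 in MKR muscle and 4.79, 4.99 and 5.12 in WT muscle. The Xcl1 groups touched at WT replicate 3, the change was 0.31 (SE 0.11, adjusted p = 0.351), and only 1 of 3 probe sets had a higher mean in MKR muscle. Of 9 genes of T and NK cells, 9 had a higher mean in MKR muscle, and their mean was 4.71 to 4.74 in MKR muscle and 4.5 to 4.59 in WT muscle. These levels are low on the array, and their part in Xcl1 and Ccr6 was not tested.

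Markers of several cell types differed between MKR and WT muscle beside these members. Of 8 adipocyte genes 8 had a higher mean in MKR muscle (list means 6.22 to 6.76 in MKR muscle and 6.15 to 6.44 in WT muscle), and so had 6 of 6 neutrophil genes (4.75 to 4.83 in MKR muscle and 4.54 to 4.74 in WT muscle). Of 8 skeletal muscle genes 0 had a higher mean in MKR muscle (12.06 to 12.11 in MKR muscle and 12.18 to 12.22 in WT muscle). Of 10 macrophage genes, 0 had a higher mean in MKR muscle, with list means of 5.56 to 5.78 in MKR muscle and 5.89 to 6.36 in WT muscle. Ccl6 had 6.08, 6.14 and 6.31 in MKR muscle and 6.37, 7.09 and 6.51 in WT muscle, all MKR arrays being below all WT arrays (-0.48, SE 0.35, adjusted p = 0.695). Cx3cr1, in contrast, had 6.03, 5.72 and 5.76 in MKR muscle and 5.66, 5.65 and 5.54 in WT muscle, all MKR arrays being above. Cxcl9 and Cxcl10, low in this tissue, were also above in MKR muscle, with 5.18, 5.23 and 5.08 against 4.85, 4.98 and 4.93 in WT muscle for Cxcl9, and 5.21, 5.27 and 5.04 against 4.82, 4.96 and 4.72 in WT muscle for Cxcl10. The adjusted p of Cxcl10 was 0.733 (0.33, SE 0.27). The part of these marker shifts in the values of the members in muscle was not tested.

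**Figure D5:**
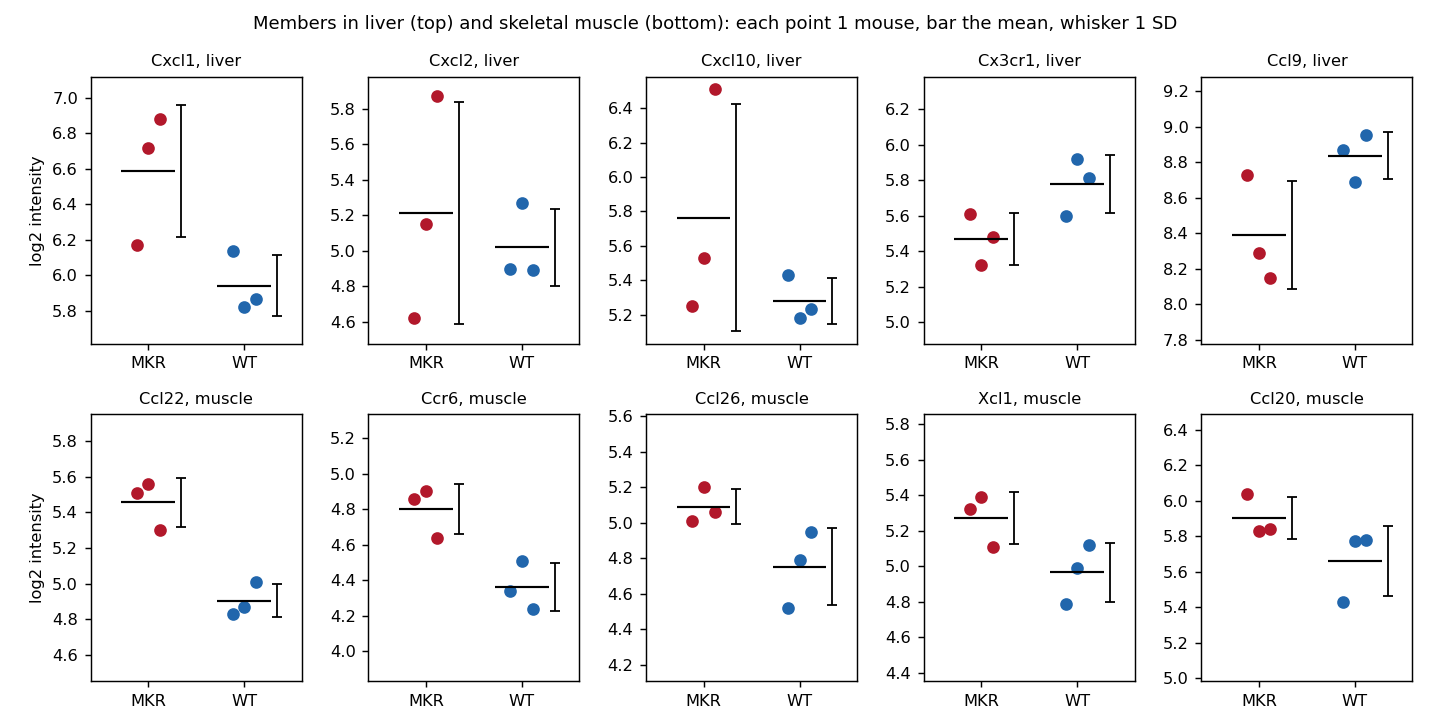
Log2 intensity (vertical axis, own scale per panel) of 5 members in liver (top) and 5 in skeletal muscle (bottom), with 1 point per mouse, MKR left of WT, a bar for the mean and a whisker for 1 SD. In Cxcl1 and Ccl22 all MKR points lie above all WT points, and in Cxcl10 of liver 1 MKR point is far above the others.

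The difference between MKR and WT was then compared between tissues as a contrast of contrasts. At an adjusted p under 0.05 no member differed between fat and liver (0 of 51, with 0% of all genes called), fat and muscle (0 of 51, with 0.103%) or liver and muscle (0 of 51, with 0.0737%). Cxcl1 had the smallest p between fat and liver, its change being 0.71 lower in fat (-0.71, SE 0.21, adjusted p = 0.558 from limma). Between fat and muscle it was Ccl12, whose change was 0.88 higher in fat (SE 0.26, adjusted p = 0.359), and between liver and muscle it was Ccl26 (-0.51, SE 0.17, adjusted p = 0.349). Without MKR fat replicate 1 the change of Ccl2 was 0.96 higher in fat than in liver (SE 0.21, adjusted p = 0.151).

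The remaining members are given by role. Of the lymphocyte receptors Ccr4, Ccr6, Ccr8, Ccr9, Ccr10, Cxcr3 and Cxcr6, 5 of 7 had a higher mean in MKR fat, 3 in MKR liver and 5 in MKR muscle, with changes from -0.18 to 0.18 in fat and from -0.06 to 0.08 in liver. Ccr4 had the narrowest range of any member, 3.75 to 4.04 over the 18 arrays. Of the lymphoid homing genes, Cxcl13, which draws B cells through CXCR5, had 6.71, 8.90 and 6.57 in MKR fat and 6.91, 7.32 and 7.84 in WT fat. MKR replicate 2 alone was high, and B cell and lymph node genes averaged 4.92 in it, against 4.68 to 4.92 in the other fat arrays. Cxcr5 and Ccr7 had changes of -0.05 and 0.17 in fat. The T cell ligand Ccl1 (4.93 to 5.54 over the 18 arrays), the macrophage ligands Ccl3 (5.13 to 6.17) and Ccl4 (5.28 to 6.0), the skin ligand Ccl27a (5.34 to 6.02) and the dendritic cell receptor Xcr1 (4.35 to 5.27) overlapped between MKR and WT in each tissue. Of the mucosal ligands, Ccl25, the ligand of CCR9, averaged 5.85 in fat, 6.79 in liver and 6.84 in muscle, and fat lay below liver (-0.95, SE 0.12, adjusted p = 6.72e-06).

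The other genes of the pathway came from lists outside the 51 members. In 6 further chemokines and decoy receptors, 0 passed an adjusted p of 0.05 in any tissue. At an unadjusted p under 0.05 only Ppbp, a platelet ligand of CXCR2, passed. It was higher in MKR muscle (0.62, SE 0.28, with 4.64% of all genes). Of 34 measured genes that carry the receptor signal, 0 passed the adjusted p. At the unadjusted p 1 was higher in MKR fat (3.53% of all genes were). There were 3 lower in MKR liver (2.51% of all genes) and 1 lower in MKR muscle (5.89%). When MKR fat replicate 1 was left out, 5 were higher in MKR fat at the unadjusted p (4.99% of all genes). Then 28 of 34 had a higher mean there, against 21 with that array. The 3 in liver were Cdc42 (-0.37, SE 0.11), a GTPase of cell polarity, Arrb2 (-0.33, SE 0.12), an arrestin that turns receptors off, and Rac2 (-0.31, SE 0.13), a GTPase of leukocytes. Of 16 interferon-stimulated genes, 3 had a higher mean in MKR mice in each tissue, with median changes of -0.13 in fat, -0.09 in liver and -0.16 in muscle. At the unadjusted p 4 were lower in MKR liver (2.51% of all genes). In fat without MKR replicate 1, 6 of the 16 had a higher mean in MKR mice and the median change there was -0.04. Of these Ifit1 had 5.41, 5.49 and 5.21 in MKR liver and 5.84, 5.94 and 6.05 in WT liver (-0.57, SE 0.12, adjusted p = 0.162).

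Among 12 NF-kappaB and cytokine genes, 0 passed the adjusted p in any tissue. Il1b had 6.34, 7.0 and 7.51 in MKR liver and 7.33, 5.52 and 5.43 in WT liver, with overlap (0.86, SE 0.37, adjusted p = 0.936). Of 11 immediate early genes, which are transcribed within minutes of a stimulus, 9 had a higher mean in MKR fat, 10 in MKR liver and 10 in MKR muscle, with median changes of 0.24, 0.54 and 0.51. With MKR fat replicate 1 left out, 10 had a higher mean in MKR fat and the median there was 0.49. Egr1 had 6.16, 7.55 and 7.79 in MKR fat and 6.60, 5.40 and 5.24 in WT fat. It had 6.27, 7.99 and 8.02 in MKR liver and 5.62, 5.26 and 5.40 in WT liver, where the MKR arrays stood in the same order as for Cxcl1. None of these genes passed over all arrays, and without MKR fat replicate 1 there passed Egr2 in fat (1.62, SE 0.28, adjusted p = 0.0243) and Egr2 (1.17, adjusted p = 0.0434), Atf3 (1.68, adjusted p = 0.0442) and Fosb (0.51, adjusted p = 0.0468) in muscle. The part of these genes in the values of Ccl2 and Cxcl1 was not tested.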

How the data were processed

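The authors extracted RNA from fat, liver and skeletal muscle, normalised the arrays by RMA quantile normalisation in Partek 6.3 and transformed them to log2. The deposited log2 values (1.52 to 3.82 over 241419 probe sets) have the range of log2 intensities put through log2 once more. This was inferred from the values alone, so 2 to the power of each was used as the log2 intensity (2.87 to 14.15). Of the probe sets 212138 had 1 symbol, 4672 several and 24609 none; only the first were used, and averaged per gene. Probe sets shared by several symbols were left out, among them those of Ccl19 (20), the Ccl21 genes (18) and some of Ccl27a (9). Older symbols were updated through RefSeq synonyms.

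limma 3.58.1 in R 4.3.3 was fitted to all 18 arrays with 1 mean per group, with Benjamini-Hochberg adjustment over 20358 genes. The members and lists were chosen with earlier results of these data known. Members were named where they passed the test, among the 5 smallest p in a tissue, among the 5 largest tissue excesses, or among the 5 for which MKR fat replicate 1 lay farthest out. The fit was checked on simulated arrays with known changes. Tissues of 1 mouse share that mouse, and the consensus correlation within a mouse was 0.0208. The replicate numbers of MKR and WT mice belong to different mice. Alternatives left out each array, used blocks, other summaries and scalings, array weights and the cut-offs of the study. The labels name separate mice but no litters, so p-values measure the spread between these mice. Detection calls and raw intensities were not analysed here, and the number of arrays limits the precision.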

Additional observations from a re-analysis of the deposited data

How the results depend on the processing

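For the differences between MKR and WT mice, where 0 members passed in each tissue over all arrays, other settings moved the count by at most 3. Shares of all genes called under most of these settings are not given here, so the counts do not set members against other genes. In fat, array weights gave 3 (Ccl2, Ccl28 and Cxcl12), and the cut-offs of the study (unadjusted p below 0.05 with at least 1.5-fold) gave 3 (Ccl12, Cxcl9 and Cxcl11). Leaving out MKR fat replicate 1 with WT fat replicates 1 and 2, a choice made after seeing the data, gave Ccl2 a change of 1.12. Ccl28 then had 5.92 and 5.72 in MKR fat against 5.91 in WT fat, a change of -0.09. The lower mean of Ccl28 in MKR fat thus rested on the arrays in which it was split. That setting leaves 1 WT fat array against 2 MKR fat arrays. The lone WT array has no spread of its own, so only the size of each change is given. In liver, the median of probe sets and those cut-offs each gave 1 (Cxcl1). For Cxcl1 in liver that median is the probe set with the largest change. In muscle array weights gave 1 (Ccl22, 0.56, adjusted p = 0.0246). Leaving out 1 array at a time gave 0 to 1 in fat, where Ccl2 passed without MKR fat replicate 1, 0 to 1 in liver, where Cxcl1 passed without MKR liver replicate 1, and 0 to 1 in muscle, where Ccl22 passed without MKR liver replicate 1 (adjusted p = 0.0464), which alters only the shared spread. The arrays of a tissue fitted alone gave 0 in each tissue. Of the members with the smallest p in a tissue and of Ccl28, 0 changed direction under any alternative run. The change of Ccl28, however, ran from -2.49 to -0.09 over these runs. Ccl6, Ccl9 and Ccl11 in fat did so without MKR fat replicate 1, with 0.34, 0.23 and 0.35, against -0.26, -0.29 and -0.31 with it, and none of these passed the test. The median of probe sets gave 1 member, Cxcl1, whose MKR effect differed between liver and muscle, and its liver values again come from that probe set.

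For the tissue differences, 24, 24 and 16 members passed for fat minus liver, fat minus muscle and liver minus muscle. WT mice alone gave 13 for fat minus liver, and their counts for the other tissue pairs are not given here. MKR mice alone gave 15, 12 and 10. Leaving out 1 array at a time gave 19 to 25, 19 to 25 and 13 to 17. With the mouse as a fixed replicate block the counts were 23, 23 and 15, and for MKR minus WT a replicate block left 0 in each tissue. Here too the shares of all genes called under these settings are not given.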
